A study of Trachinotus blochii with 22 samples.

Results

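The miR-30 family was followed in liver small RNA libraries of Trachinotus blochii, the golden pompano, a marine teleost that is farmed in cages and ponds. Members were the rows of the deposited miRNA table whose name after the species prefix is miR-30, with any letter, copy number or arm suffix. This gave 49 rows of 2108, of which 42 were distinct in their values. A row counted as tested when it held at least 1 CPM (reads of the row scaled so that each library sums to 1000000) in at least 2 libraries, and 21 of the 42 did. Some tested rows were near copies of each other, with log2 values within 0.2 in every library. Counting near copies once left 15 entries, each named here after its most abundant row.

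All 22 libraries came from total RNA of liver, sequenced as single-end reads of 50 bases, in 8 groups. Controls were kept in normoxia and sampled at 0 h (2 libraries) and 12 h (3 libraries). Fish labelled hypoxia were sampled at 0 h and 12 h, with 3 libraries each. After hypoxia, oxygen was restored either rapidly (3 libraries at 3 h and 2 at 12 h) or gradually (3 libraries at 3 h and 3 at 12 h). The labels give no age, sex, oxygen level or duration of the hypoxia, and do not say whether a library is 1 fish or a pool, so the tests measure the spread between libraries only. The design asked how liver miRNAs respond to hypoxia and to the rate of reoxygenation.

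A miR-30 hairpin is cut into a 5p arm and a 3p arm, and either can be loaded into an Argonaute protein to repress mRNAs. The 5p arms of miR-30a to miR-30e share 1 seed, the stretch near the 5′ end that pairs with targets, so they can repress overlapping sets of mRNAs, while the 3p arms, once called star strands, have a different seed. In mammalian cells miR-30a-5p represses Beclin-1, an autophagy protein, and in mouse liver miR-30c represses the microsomal triglyceride transfer protein that loads lipid onto lipoproteins. In zebrafish, miR-30a is needed for bile duct development.

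Libraries held 17.5 to 33.8 M assigned reads, which makes 1 read worth 0.0296 to 0.0572 CPM. The hepatocyte marker miR-122 was at 37563 to 109912 CPM in the 22 libraries, as the tissue label says. Of the 4 striated muscle markers, miR-133a and miR-133b were near 0, with means of 0.0411 and 0.0534 CPM. The other members, miR-1 and miR-206, had means of 4.64 and 7.72 CPM and reached 21.5 and 29.7 CPM. Over all tested entries, library 2 in the group normoxia 0 h was the most distant, with a root mean square distance of 1.34 on the log2 scale from the median library, against 0.345 to 0.868 in the other 21. It also held the lowest miR-122, and the lowest level of the 22 libraries for 5 of the 15 miR-30 entries. The other library of normoxia 0 h held the highest level for 4 of the 15. The columns of the table name groups by letters and times that were joined to the labels by the times and the number of libraries. The columns taken as normoxia 0 h rest on the number of libraries alone. Rapid and gradual reoxygenation were told apart by their 2 and 3 libraries at 12 h, and their 3 h columns by the shared letter. Normoxia and hypoxia at 12 h were told apart by the letter or word shared with the columns taken as 0 h.

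The 5p rows of miR-30d, miR-30e and miR-30c carried most of the family's reads. hsa-miR-30d-5p, at 1759 ± 293 CPM (SD, n = 22 libraries), was the highest and ranked 47 among the 602 tested entries of the table. mmu-miR-30e-5p stood at 1684 ± 335 CPM and hsa-miR-30c-5p at 1398 ± 307 CPM. Together with the other 12 entries they summed to 6775 ± 849 CPM, from 4396 to 8290 CPM, and these leading entries held on average 25.9%, 24.9% and 20.6% of that sum. The order follows read number, without any scaling by length, which differs little between mature miRNAs.

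The next entries included the 3p rows of miR-30a and miR-30b and rows named after other fish. hsa-miR-30a-3p was at 664 ± 135 CPM, fru-miR-30c, named after the pufferfish, at 450 ± 119 CPM, and tgu-miR-30b-3p, named after the zebra finch, at 315 ± 83 CPM. ssa-miR-30d-5p, named after Atlantic salmon, was at 216 ± 88.0 CPM, mml-miR-30b-5p at 142 ± 37.1 CPM and ola-miR-30e, named after medaka, at 106 ± 26.1 CPM. The zebrafish row dre-miR-30a-3p followed at 22.3 ± 5.81 CPM and hsa-miR-30a-5p at 13.0 ± 29.4 CPM, an SD larger than the mean. The lamprey rows pma-miR-30d and pma-miR-30b, ssa-miR-30a-4-3p and chi-miR-30e-3p lay between 0.765 and 1.80 CPM.

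**Figure D1:**
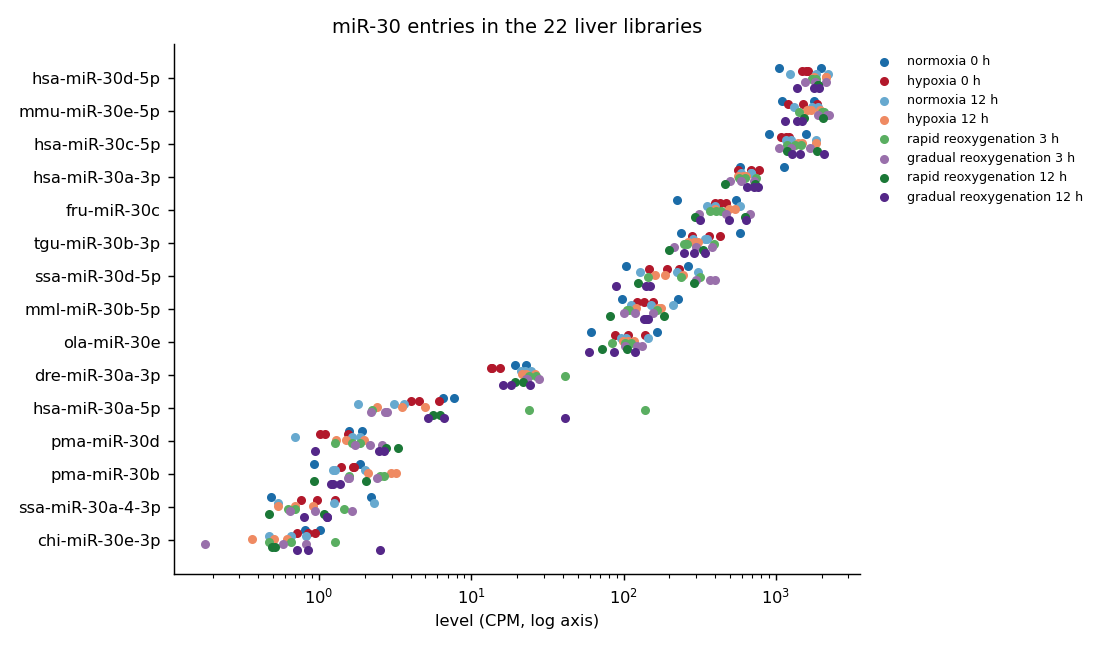
Levels of the 15 tested miR-30 entries in CPM on a log axis, 1 point per library, coloured by group. The 5p rows of miR-30d, miR-30e and miR-30c lie near the top in all groups, and hsa-miR-30a-5p has 3 libraries at 24.1, 41.2 and 139 CPM, apart from the other 19.

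The 6 near copies among the tested rows were oar-miR-30d with hsa-miR-30d-5p, gga-miR-30e-5p with mmu-miR-30e-5p, oar-miR-30c and dre-miR-30c-5p with hsa-miR-30c-5p, mdo-miR-30a-3p with hsa-miR-30a-3p, and cpi-miR-30a-5p with hsa-miR-30a-5p. They are not separate measurements. The 21 rows that were not tested had low means in every group, though mmu-miR-30f reached 1.32 CPM in library 1 of gradual reoxygenation at 12 h. dre-miR-30a-5p led them at 0.502 CPM, followed by bta-miR-30f at 0.362 CPM, ola-miR-30d-3p at 0.277 CPM and mmu-miR-30f at 0.245 CPM. ipu-miR-30a was at 0.183 CPM, xtr-miR-30a-3p at 0.169 CPM and pma-miR-30g at 0.0951 CPM. pma-miR-30c-5p, hsa-miR-30d-3p, ami-miR-30d-3p, gmo-miR-30d-5p, oan-miR-30d-3p, pma-miR-30a-3p, oha-miR-30d-3p, pbv-miR-30d-3p, pma-miR-30c-3p, ipu-miR-30d and ssa-miR-30a-3-3p lay between 0.00635 and 0.0933 CPM. xla-miR-30d-3p, gmo-miR-30b-3p and dno-miR-30c-2-3p had 1 read in 1 library each. Just outside and just inside the limit for testing, by mean level, were dre-miR-30a-5p at 0.502 CPM and chi-miR-30e-3p at 0.765 CPM.

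The arm that dominated differed between members of the family. For miR-30a and miR-30b the 3p row exceeded the 5p row in 22 of 22 libraries. Mean hsa-miR-30a-3p was 51.1 times mean hsa-miR-30a-5p, and mean tgu-miR-30b-3p was 2.22 times mean mml-miR-30b-5p. For miR-30e and miR-30d the 5p row was the higher in every library. Mean mmu-miR-30e-5p was 2202 times mean chi-miR-30e-3p, and mean hsa-miR-30d-5p was 6359 times mean ola-miR-30d-3p, the most abundant 3p row of miR-30d, which was at 0 in 1 library. The arms are as the row names give them, and each row matches the pompano reads through another species' sequence, so the level of an arm depends on which rows the table holds for it.

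The distance between arms ranged more widely for miR-30a than for miR-30b, mostly through 3 libraries. The log2 ratio of hsa-miR-30a-5p to hsa-miR-30a-3p ran from -8.56 to -2.04 with a median of -7.30, a range of 6.53. This ratio was -4.71 and -2.04 in libraries 2 and 3 of rapid reoxygenation at 3 h and -3.97 in library 1 of gradual reoxygenation at 12 h. In the other libraries it ran from -8.56 to -6.23. For miR-30b the log2 ratio of mml-miR-30b-5p to tgu-miR-30b-3p ran from -1.80 to -0.45, a range of 1.35. The range was 4.53 for miR-30e and 3.20 for miR-30d, whose 3p rows had means of only 0.765 and 0.277 CPM. With the zebrafish row dre-miR-30a-3p as the 3p arm, the 3p row exceeded hsa-miR-30a-5p in 20 of 22 libraries, and the exceptions were library 3 of rapid reoxygenation at 3 h and library 1 of gradual reoxygenation at 12 h. Summed over the entries whose names give an arm, the 6 named 5p outweighed the 5 named 3p 5.38-fold on average (SD 1.30, 3.35-fold to 8.71-fold). Entries without an arm in their name, such as fru-miR-30c and ola-miR-30e, were in neither sum.

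**Figure D2:**
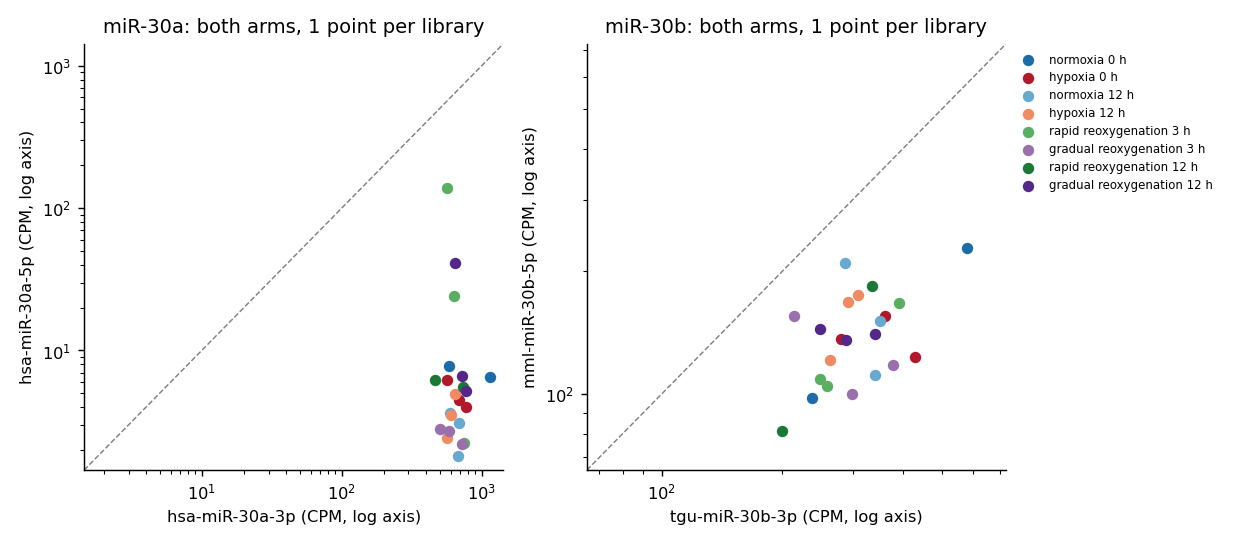
Level of the 5p row against the 3p row in CPM, both on log axes, for miR-30a (left) and miR-30b (right), 1 point per library and coloured by group, with a dashed line where both arms are equal. Every library lies under the line in both panels, and for miR-30a the 5p level spreads from 1.80 to 139 CPM while the 3p level stays between 467 and 1139 CPM.

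The libraries of 3 of the 14 comparisons between groups did not overlap in the miR-30a arm ratio, and all 3 involved a reoxygenation group at 12 h. In group means, the log2 ratio was -6.84 in normoxia and -7.12 in hypoxia at 0 h, and -7.90 in normoxia and -7.44 in hypoxia at 12 h. Rapid reoxygenation had a mean of -5.04 at 3 h (SD 3.18, n = 3) and -6.64 at 12 h, and gradual reoxygenation had -7.87 at 3 h and -5.98 at 12 h. Libraries of gradual reoxygenation at 12 h, at -7.22 to -3.97, did not overlap those of normoxia at 12 h, at -8.56 to -7.35, or those of gradual reoxygenation at 3 h, at -8.36 to -7.49. Those of rapid reoxygenation at 12 h, at -7.04 to -6.23, did not overlap those of normoxia at 12 h either. The differences from gradual reoxygenation were 1.92 and 1.89 on the log2 scale, each with an exact two-sided permutation p of 0.1 and 0.56 after adjustment over the 14 comparisons. Rapid reoxygenation minus normoxia at 12 h was 1.26, with an exact p of 0.2 and 0.56 after adjustment. An exact p of 0.1 is the smallest that 3 against 3 libraries allow, and 0.2 the smallest for 2 against 3, so that no comparison could pass the threshold of 0.05. Without library 1 of gradual reoxygenation at 12 h its differences were 0.92 and 0.88.

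Across the 8 groups, 0 of the 21 tested miR-30 rows passed the moderated F test of limma on log2(CPM + 1), against a background of 1.5% of all tested entries (9 of 602). One row, dre-miR-30a-3p, had an unadjusted p under 0.05, against 14.8% of all tested entries. Its F was 3.42, with an unadjusted p of 0.0174 and an adjusted p of 0.228. edgeR on the recovered reads called 2 rows, the near copies hsa-miR-30a-5p and cpi-miR-30a-5p, and DESeq2 called these and dre-miR-30a-3p. The same near copies passed in limma without library 1 of rapid reoxygenation at 3 h, at an adjusted p of 0.0218, and dre-miR-30a-3p passed without library 3 of normoxia 0 h, at an adjusted p of 0.0482. The 1.5% is the share that limma called with all 22 libraries. The shares of all entries called in these other fits are not given here, so their counts have no background beside them.

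In the pairwise comparisons no miR-30 row passed the limma threshold of an adjusted p under 0.05, and edgeR also called 0 in each. The backgrounds below are the shares of all tested entries that limma called at this threshold. The share that DESeq2 alone called is not given here. Where it called miR-30 rows, the highest count over all alternatives stands beside them. The background for hypoxia minus normoxia was 0.498% at 0 h and 0.664% at 12 h. In each, 1 miR-30 row of 21 was under an unadjusted 0.05, against 8.31% and 3.82% of all tested entries. From hypoxia at 0 h, the background was 0.0% both to rapid and to gradual reoxygenation at 3 h. There, 3 and 4 miR-30 rows were under an unadjusted 0.05, against 2.66% and 14.8% of all tested entries. DESeq2 called 3 rows in the rapid comparison (dre-miR-30a-3p and the near copies hsa-miR-30a-5p and cpi-miR-30a-5p) and 1 in the gradual comparison (dre-miR-30a-3p). No alternative called more than 7 entries of the whole table in the rapid comparison, or more than 21 in the gradual comparison. Between gradual and rapid reoxygenation the background was 0.0% at 3 h and 0.0% at 12 h. Under an unadjusted 0.05 were 2 and 0 rows, against 9.47% and 6.81% of all tested entries. DESeq2 called the near copies hsa-miR-30a-5p and cpi-miR-30a-5p at 3 h, where no alternative called more than 14 entries of the whole table.

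Against normoxia at 12 h the background was 0.0% for rapid and 1.66% for gradual reoxygenation. Under an unadjusted 0.05 were 1 and 0 miR-30 rows, against 4.49% and 10.6% of all tested entries. DESeq2 called hsa-miR-30a-5p and its near copy in the gradual comparison, where no alternative called more than 22 entries of the whole table. Against hypoxia at 12 h the limma background was 0.0% for rapid and 0.0% for gradual reoxygenation. Each had 2 rows under an unadjusted 0.05, against 4.98% and 9.8% of all tested entries. Between times the background was 4.82% in normoxia, 0.0% in hypoxia, 0.0% in rapid and 1.83% in gradual reoxygenation. In this order 0, 2, 1 and 4 miR-30 rows were under an unadjusted 0.05, against 21.9%, 5.48%, 2.16% and 16.8% of all tested entries. In gradual reoxygenation DESeq2 called hsa-miR-30a-5p, its near copy and ssa-miR-30d-5p, and alternatives called up to 53 entries of the whole table. Whether the effect of hypoxia differed between 12 h and 0 h, and whether gradual and rapid reoxygenation differed more at 12 h than at 3 h, were tested as differences between comparisons, with backgrounds of 0.997% and 0.166%, 0 miR-30 rows passing and 0 and 4 under an unadjusted 0.05. Of all tested entries, 8.97% and 10.5% were under that unadjusted value.

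The family's median difference stayed close to that of all tested entries. Its median over the 21 rows ran from -0.12 in rapid reoxygenation from 3 h to 12 h to 0.19 from hypoxia at 0 h to rapid reoxygenation at 3 h, on the log2 scale. The medians of all 602 entries in those comparisons were -0.03 and -0.02. In simulated data for hypoxia against normoxia at 12 h, limma recovered 29% of entries changed 2-fold and 74% of entries changed 4-fold. Many more entries were changed there than the 4 of 602 that limma called in the data. The adjusted threshold was therefore easier to pass in the simulation, and these shares do not measure the power for the miR-30 rows.

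Groups whose libraries did not overlap were few among the 15 entries, and their number is read against the share of all 602 entries apart in the same direction. In hypoxia against normoxia, 0 entries were higher (background 7.81%) and 3 lower (8.31%) at 0 h, and 1 was higher (4.82%) and 0 lower (7.97%) at 12 h. From hypoxia at 0 h to rapid reoxygenation at 3 h, 2 were higher (6.31%) and 0 lower (6.81%), and to gradual reoxygenation 4 were higher (14.3%) and 1 lower (17.3%). Gradual against rapid reoxygenation gave 0 higher (10.6%) and 0 lower (8.97%) at 3 h, and 1 higher (4.49%) and 2 lower (16.3%) at 12 h.

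At 12 h, rapid reoxygenation had 2 entries above (8.31%) and 0 below (9.47%) normoxia, and 2 above (12%) and 1 below (11%) hypoxia. Gradual reoxygenation had 1 entry above (4.32%) and 0 below (16.9%) normoxia, and 3 above (4.98%) and 3 below (18.8%) hypoxia. From the earlier to the later time, normoxia had 0 entries higher (9.3%) and 1 lower (16.8%), and hypoxia 4 higher (11.6%) and 1 lower (11.5%). Rapid reoxygenation had 2 higher (8.8%) and 1 lower (7.81%), and gradual reoxygenation 1 higher (10.5%) and 3 lower (19.1%). The rows apart in at least 1 comparison were mmu-miR-30e-5p, hsa-miR-30d-5p, hsa-miR-30c-5p, hsa-miR-30a-3p, ssa-miR-30d-5p, dre-miR-30a-3p, hsa-miR-30a-5p, pma-miR-30b, pma-miR-30d and chi-miR-30e-3p.

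hsa-miR-30d-5p, the most abundant row, varied little. It was at 1047 and 1976 CPM in normoxia at 0 h, and at 1476, 1629.9 and 1591 CPM in hypoxia at 0 h. At 12 h, normoxia held 2188, 1244 and 1839 CPM and hypoxia 2135, 1788 and 2124 CPM. All 3 hypoxia libraries at 12 h lay above all 3 at 0 h, with a difference of 0.36 ± 0.23 on the log2 scale (SE; adjusted p = 0.795), whereas each hypoxia group overlapped its normoxia group.

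During reoxygenation hsa-miR-30d-5p remained between 1378 and 2124 CPM. Rapid reoxygenation gave 1731, 1741 and 1843 CPM at 3 h and 1890.2 and 1887 CPM at 12 h. The libraries of rapid reoxygenation at 3 h all lay above those of hypoxia at 0 h, by 0.18 ± 0.23 on the log2 scale (adjusted p = 0.999), and below those at 12 h, by 0.09 ± 0.26 (adjusted p = 0.998). Gradual reoxygenation gave 2124, 1808 and 1555 CPM at 3 h and 1779, 1378 and 1925 CPM at 12 h. The highest and lowest group means differed 1.33-fold, and its pooled SD within groups, 0.27 on the log2 scale, stood at percentile 16.4 of the 602 tested entries. Neighbouring groups in the order of means overlapped in 7 of 7 steps.

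hsa-miR-30c-5p, the arm with the lipoprotein target in mouse liver, had the same step within hypoxia. It was at 1160.2, 1089.9 and 1215 CPM in hypoxia at 0 h and 1479.5, 1398 and 1841 CPM in hypoxia at 12 h. These groups did not overlap, with a difference of 0.44 ± 0.26 on the log2 scale (adjusted p = 0.795), and normoxia at 12 h, at 1839.5, 1166 and 1254 CPM, overlapped both. In total 4 of the 15 entries, the miR-30d-5p and miR-30c-5p rows, dre-miR-30a-3p and pma-miR-30b, were higher in every hypoxia library at 12 h than at 0 h, against 11.6% of all tested entries, and chi-miR-30e-3p was lower, against 11.5%. None of the 5 passed the test.

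After reoxygenation hsa-miR-30c-5p was at 1183, 1456 and 1338 CPM in the rapid group at 3 h and at 1179 and 1871 CPM at 12 h. The gradual group held 1681, 1263 and 1050.2 CPM at 3 h and 2088, 1274 and 1452 CPM at 12 h. Library 1 of the gradual group at 12 h was the highest of all, and library 2 of normoxia at 0 h, at 901 CPM beside 1585 CPM in library 3, the lowest. fru-miR-30c, at 32.2% ± 5.66 of the level of hsa-miR-30c-5p, ran from 225 to 680.04 CPM. Its lowest level was in the same library 2 of normoxia at 0 h, and its highest in library 1 of gradual reoxygenation at 3 h. It gave the smallest spread of group means, 1.26-fold from lowest to highest.

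By group mean, mmu-miR-30e-5p and ssa-miR-30d-5p were highest in gradual reoxygenation at 3 h and lowest in the same treatment at 12 h. mmu-miR-30e-5p was at 2229, 2176 and 1883 CPM in gradual reoxygenation at 3 h and at 1152, 1387 and 1495 CPM at 12 h. The groups were apart, and the difference was -0.64 ± 0.23 on the log2 scale (95% interval -1.12 to -0.17; limma adjusted p = 0.141). Gradual reoxygenation at 12 h was also below all 3 libraries of hypoxia at 12 h, at 1960.2, 1700.2 and 1595 CPM, and both of rapid reoxygenation at 12 h, at 2038 and 1536 CPM.

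By group mean, the other groups of mmu-miR-30e-5p lay between these, though library 2 of normoxia at 0 h held the lowest level of all. Hypoxia at 0 h held 1855, 1502 and 1207 CPM, all under the gradual group at 3 h, with a difference of 0.48 ± 0.23 on the log2 scale to it (adjusted p = 0.327). Rapid reoxygenation at 3 h held 2001, 1419 and 2075 CPM, and the gradual group overlapped it. Normoxia held 1102 and 1773 CPM at 0 h and 1321, 1735 and 1906 CPM at 12 h, spanning most of the range of the row.

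ssa-miR-30d-5p had its highest and lowest group means in the same groups, with larger differences. It was at 299.98, 371 and 402 CPM in gradual reoxygenation at 3 h and at 89.6, 141 and 149.8 CPM at 12 h. Every library at 12 h lay below every library at 3 h, and the difference was -1.51 ± 0.41 on the log2 scale (95% interval -2.37 to -0.65). The adjusted p was 0.0590 in limma and ran from 0.0305 to 0.244 over 17 alternatives, of which DESeq2 and a filter of 10 CPM gave a value under 0.05.

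Hypoxia at 0 h held 232, 192 and 147 CPM of ssa-miR-30d-5p, below the gradual group at 3 h, with a difference of 0.92 ± 0.41 (adjusted p = 0.327). Rapid reoxygenation was at 237, 145 and 316 CPM at 3 h and at 290.2 and 124 CPM at 12 h, overlapping the gradual group at both times. Hypoxia at 12 h held 188, 246 and 161 CPM. Normoxia held 104 and 265 CPM at 0 h and 128, 308 and 225 CPM at 12 h. Whether the gradual and rapid groups differed more at 12 h than at 3 h was tested directly for this row, with -1.29 ± 0.61 on the log2 scale (adjusted p = 0.460).

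**Figure D3:**
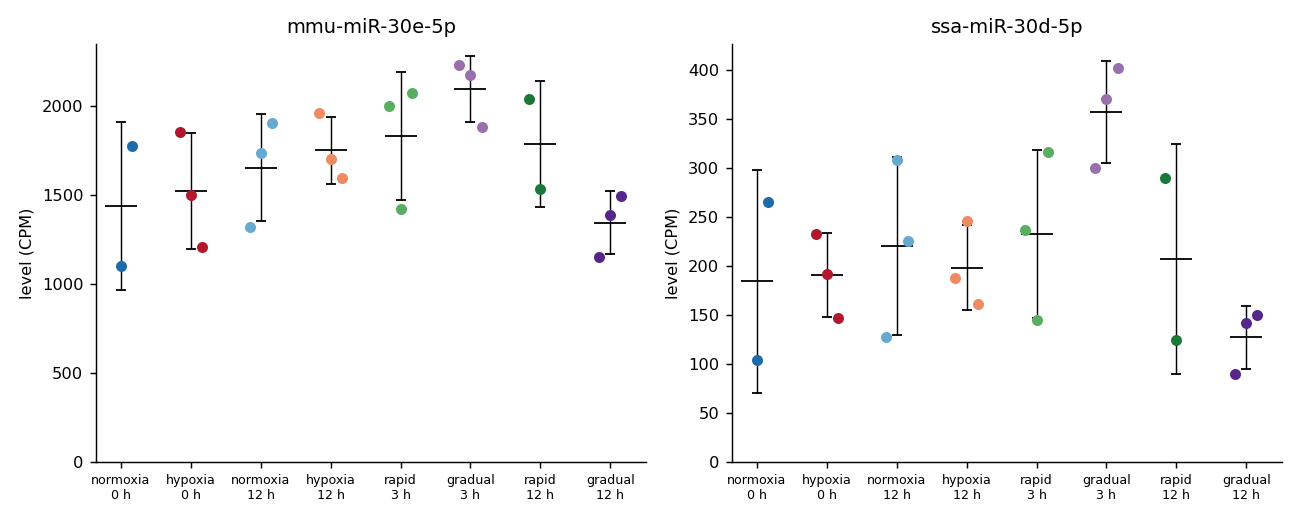
Levels of mmu-miR-30e-5p (left) and ssa-miR-30d-5p (right) in CPM by group, 1 point per library, with the group mean as a bar and the SD as whiskers (2 libraries in normoxia 0 h and rapid 12 h, 3 in the others). For both rows the 3 libraries of gradual reoxygenation at 3 h lie above the 3 at 12 h.

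From gradual reoxygenation at 3 h to 12 h, 3 of the 15 entries were lower in every library at 12 h than in any at 3 h (the miR-30e-5p row, ssa-miR-30d-5p and pma-miR-30b), against 19.1% of all tested entries. hsa-miR-30a-5p lay higher in every library at 12 h, against 10.5%. From hypoxia at 0 h to gradual reoxygenation at 3 h, 4 entries were higher in every library (the miR-30e-5p row, ssa-miR-30d-5p, dre-miR-30a-3p and pma-miR-30d), against 14.3%, and hsa-miR-30a-5p was lower, against 17.3%. The summed erythroid markers miR-451 and miR-144 moved along the same groups, at 9458 to 12791 CPM in gradual reoxygenation at 3 h, 863 to 4501 CPM at 12 h and 2674 to 4849 CPM in hypoxia at 0 h. Other marker sums also differed between gradual reoxygenation at 3 h and at 12 h. The leukocyte sum of 4 markers was 74.9 to 96.1 CPM at 3 h and 49.4 to 73.8 CPM at 12 h, the sum of 5 epithelial markers was 1493 to 2082 and 2661 to 3795 CPM, and that of 3 pancreatic acinar markers was 38.4 to 1388 and 1345 to 4338 CPM. In limma, 1 of 2 erythroid markers (miR-451, adjusted p = 0.0406) and 1 of 4 leukocyte markers (miR-142, adjusted p = 0.0482) fell from 3 h to 12 h. The part of these markers in the miR-30 differences was not tested. In normoxia at 12 h the erythroid sum was 7175 to 13971 CPM, with the miR-30e-5p and ssa-miR-30d-5p levels given above. In bulk liver, fewer cells of a type and less RNA per cell cannot be told apart.

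dre-miR-30a-3p was lowest in hypoxia at 0 h. Its levels there were 13.7, 15.5 and 13.5 CPM, and each of the other 19 libraries held more, the next being library 2 of gradual reoxygenation at 12 h at 16.1 CPM. The fewest reads of this row in any library were 344, in library 3 of normoxia at 0 h. Normoxia at 0 h held 22.9 and 19.5 CPM, so hypoxia was lower in every library by a difference of -0.54 ± 0.25 on the log2 scale (adjusted p = 0.568). In the same comparison 1 of 2 erythroid markers, ola-miR-144, rose by 2.21 ± 0.44 on the log2 scale (limma adjusted p = 0.0273), with an erythroid sum of 823 to 2313 CPM in normoxia and 2674 to 4849 CPM in hypoxia. All 5 epithelial and all 3 pancreatic acinar markers had lower values in hypoxia, and none of them passed the test. Their sums were 3076 to 19714 and 4134 to 4269.7 CPM in normoxia and 2420 to 3965 and 2300.1 to 3499 CPM in hypoxia. The hepatocyte marker miR-122 was at 37563 to 70974 CPM in normoxia and 74116 to 90170 CPM in hypoxia, without passing the test. The smooth muscle markers miR-143 and miR-145 had lower values in hypoxia, and neither passed. Of the normoxia libraries here, library 2 is the one most distant from the median library over all tested entries. The part of these markers in the difference was not tested.

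At 3 h of reoxygenation the row stood higher than in hypoxia at 0 h in every library of both treatments. Rapid reoxygenation held 24.1, 26.7 and 41.3 CPM, a difference of 1.02 ± 0.22 on the log2 scale (95% interval 0.55 to 1.49; unadjusted p = 0.000275, limma adjusted p = 0.0828). The adjusted p ran from 0.00309 to 0.999 over 17 alternatives and was under 0.05 in DESeq2 and without library 1 of the rapid group, at 0.0213. Gradual reoxygenation held 27.7, 23.0 and 23.3 CPM, a difference of 0.75 ± 0.22 (adjusted p = 0.210, and 0.0428 in DESeq2). Both comparisons share the 3 hypoxia libraries. The gradual and rapid groups overlapped, with a difference of -0.27 ± 0.22 (adjusted p = 0.806).

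At 12 h the groups were close together. Normoxia held 22.4, 21.2 and 24.9 CPM and hypoxia 26.1, 22.7 and 21.5 CPM of dre-miR-30a-3p. Hypoxia at 12 h was above hypoxia at 0 h in every library, by 0.68 ± 0.22 on the log2 scale (adjusted p = 0.772). Rapid reoxygenation held 21.9 and 19.4 CPM at 12 h, both below all of its 3 h libraries, and gradual reoxygenation 24.3, 16.1 and 18.2 CPM. The pooled SD within groups was 0.22 on the log2 scale, at percentile 4.98 of the 602 tested entries.

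The more abundant 3p row, hsa-miR-30a-3p, did not share this pattern. It was at 772, 564 and 686 CPM in hypoxia at 0 h, at 742, 631 and 569 CPM in rapid and at 501, 721 and 589 CPM in gradual reoxygenation at 3 h, and the groups overlapped. The zebrafish row made up 3.52% ± 1.28 of its level, from 1.71% to 7.25%. hsa-miR-30a-3p was highest in library 3 of normoxia 0 h, at 1139 CPM beside 585 CPM in library 2, and lowest in library 1 of rapid reoxygenation at 12 h, at 467 CPM beside 735 CPM in library 2. At 12 h it held 683, 592 and 687 CPM in normoxia, 608, 568 and 639.99 CPM in hypoxia and 644, 718 and 768 CPM in gradual reoxygenation. The last group was above hypoxia in every library.

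**Figure D4:**
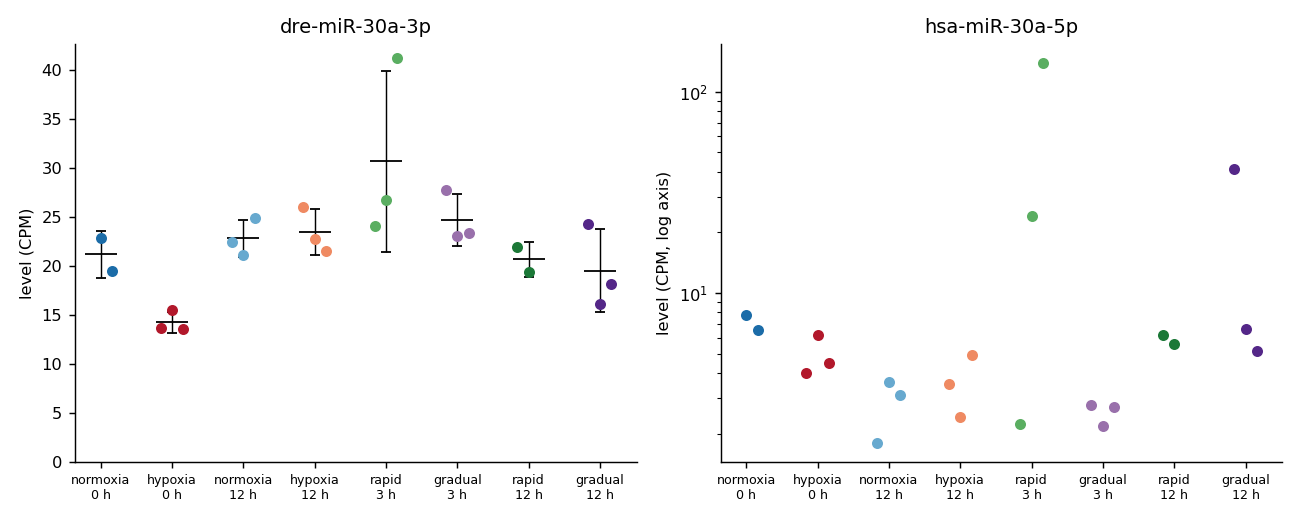
Levels of dre-miR-30a-3p on a linear axis (left, group mean as a bar and SD as whiskers) and of hsa-miR-30a-5p on a log axis (right), in CPM by group, 1 point per library (2 in normoxia 0 h and rapid 12 h, 3 in the others). The 3 libraries of hypoxia at 0 h lie lowest on the left, at 13.5 to 15.5 CPM, and 3 libraries from 2 groups stand apart on the right.

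hsa-miR-30a-5p, the arm that represses Beclin-1 in mammalian cells, was low in most libraries and high in 3. Rapid reoxygenation at 3 h held 2.23, 24.1 and 139 CPM and gradual reoxygenation at 12 h 41.2, 6.63 and 5.17 CPM. The other 19 libraries lay between 1.80 and 7.75 CPM, with a median of 4.01 CPM. The 3 high libraries belong to 2 groups, and each of these groups also held libraries in the low range, so the pooled SD within groups, 1.20 on the log2 scale, stood at percentile 95.0 of the tested entries.

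In the other groups the row was low in every library. Normoxia held 7.75 and 6.51 CPM at 0 h and 1.80, 3.62 and 3.10 CPM at 12 h. Hypoxia held 4.01, 6.18 and 4.51 CPM at 0 h and 3.52, 2.41 and 4.95 CPM at 12 h. Gradual reoxygenation at 3 h held 2.79, 2.20 and 2.72 CPM, and rapid reoxygenation at 12 h 6.21 and 5.58 CPM. Both reoxygenation groups at 12 h were above normoxia at 12 h in every library, the only entry for which the gradual group was, against 4.32% of all tested entries. For the rapid group pma-miR-30d was the other, against 8.31%. Rapid reoxygenation at 12 h minus normoxia gave 0.87 ± 1.00 on the log2 scale (adjusted p = 0.977), and gradual reoxygenation 1.74 ± 0.89 (adjusted p = 0.528). Without the high library 1 of the gradual group the latter was 0.87 (adjusted p = 0.826). Both erythroid markers were lower in gradual reoxygenation than in normoxia at 12 h (limma adjusted p = 0.0389 each), and their part in this difference was not tested.

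Gradual minus rapid reoxygenation at 3 h gave -2.66 ± 0.89 on the log2 scale for hsa-miR-30a-5p (95% interval -4.54 to -0.78; adjusted p = 0.294). Without library 1 of the rapid group it was -4.06, with an adjusted p of 0.00212, and over 17 alternatives it ran from -4.48 to 0.14. The value near 0 came from leaving out the 3 high libraries. Rapid reoxygenation at 3 h minus hypoxia at 0 h likewise gave 1.95 ± 0.89 (adjusted p = 0.999), and -0.85 without those libraries. The direction of both differences therefore rests on libraries 2 and 3 of the rapid group.

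The zebrafish row of the same arm, dre-miR-30a-5p, was not high where hsa-miR-30a-5p was. It stood at 0.530 and 0.346 CPM in libraries 2 and 3 of rapid reoxygenation at 3 h and at 0.343 CPM in library 1 of gradual reoxygenation at 12 h, within the 0.187 to 0.975 CPM of the other libraries. chi-miR-30e-3p, by contrast, was highest in library 1 of gradual reoxygenation at 12 h, at 2.52 CPM, and second in library 3 of rapid reoxygenation at 3 h, at 1.28 CPM. Apart from these libraries it reached 1 CPM only in library 3 of normoxia 0 h, at 1.02 CPM. It therefore passed the filter for testing through libraries in which it was high. dre-miR-30a-3p also had its highest level in library 3 of rapid reoxygenation at 3 h. The row mmu-miR-30f, which was not tested, had its highest level, 1.32 CPM, in library 1 of gradual reoxygenation at 12 h.

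In other families, 3 entries had patterns most like that of hsa-miR-30a-5p over the 22 libraries. aca-miR-98-5p, of the let-7 group, had a Pearson r of 0.92 of log2(CPM + 1) and a Spearman rho of 0.77. It was at 0.593 and 2.11 CPM in libraries 2 and 3 of rapid reoxygenation at 3 h and at 1.72 CPM in library 1 of gradual reoxygenation at 12 h, against 0.0313 to 0.527 CPM elsewhere, so that all 3 libraries lay above the others. Only its values of 2.11 and 1.72 CPM reached 1 CPM, so it was tested through libraries in which hsa-miR-30a-5p was high. dme-miR-10-5p, a row named after the fruit fly, had an r of 0.83 and was at 9.73, 100.4 and 1.14 CPM in these libraries, against 0.0766 to 3.71 CPM elsewhere, so that the third of these values lay within the range of the others. ggo-miR-29a had an r of 0.83 and was at 2.12, 7.86 and 18.5 CPM, against 0.262 to 3.51 CPM, so that here the first value lay within that range. Without the 2 libraries farthest from the median of hsa-miR-30a-5p the r values were 0.71, 0.74 and 0.61. The points of each pair share their libraries, and the values are a description.

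The entry pma-miR-30b, whose levels lay near the 1 CPM used to choose tested rows, was highest in hypoxia at 12 h. It was at 2.95, 3.18 and 2.10 CPM there and at 1.27, 1.24 and 2.00 CPM in normoxia at 12 h. It was the 1 entry of 15 higher in every hypoxia library than in normoxia at 12 h, against 4.82% of all tested entries, with a difference of 0.58 ± 0.24 on the log2 scale (adjusted p = 0.764). The erythroid marker ola-miR-144 fell by 2.40 ± 0.39 on the log2 scale in the same comparison (limma adjusted p = 0.00214). Of the erythroid and leukocyte markers, 0 of 2 and 0 of 4 were higher in hypoxia. All 5 epithelial and all 3 pancreatic acinar markers were higher, as were the smooth muscle markers miR-143 and miR-145, and 0 of these passed. The smooth muscle sum was 13586 to 18084 CPM in normoxia and 19553 to 21721 CPM in hypoxia. The part of any of these markers in the difference was not tested. pma-miR-30b was lower than in hypoxia in gradual reoxygenation at 12 h, at 1.20, 1.24 and 1.38 CPM, by -0.71 ± 0.24 (adjusted p = 0.401), and in rapid reoxygenation, at 2.04 and 0.929 CPM.

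pma-miR-30d was highest in rapid reoxygenation at 12 h, at 3.32 and 2.74 CPM. Normoxia at 12 h held 1.64, 0.70 and 1.85 CPM, lower in every library, and the difference was 0.78 ± 0.29 on the log2 scale (adjusted p = 0.764). Gradual reoxygenation at 12 h held 2.69, 0.937 and 2.48 CPM, also below the rapid group. Hypoxia at 0 h, at 1.09, 1.01 and 1.54 CPM, lay below normoxia at 0 h, at 1.58 and 1.93 CPM, as dre-miR-30a-3p and hsa-miR-30a-5p did. These 3 of 15 entries were lower in every hypoxia library at 0 h, against 8.31% of all tested entries, and none was higher, against 7.81%.

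tgu-miR-30b-3p and mml-miR-30b-5p, the arms of miR-30b, had their highest levels in library 3 of normoxia 0 h, at 579 and 228 CPM, and their lowest in library 1 of rapid reoxygenation at 12 h, at 199 and 81.4 CPM. Neither separated any pair of groups compared here. ola-miR-30e ran from 59.6 to 167 CPM and ssa-miR-30a-4-3p from 0.468 to 2.30 CPM, also without a pair of groups apart. chi-miR-30e-3p was higher in gradual reoxygenation at 12 h, at 2.52, 0.712 and 0.850 CPM, than in hypoxia at 12 h, at 0.508, 0.613 and 0.360 CPM, with a difference of 0.58 ± 0.25 on the log2 scale (adjusted p = 0.474). Without library 1 of the gradual group, at 2.52 CPM, it was 0.26 (adjusted p = 0.943).

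In the authors' deposited table, the group means for rapid reoxygenation at 12 h and for normoxia at 0 h did not equal the means of the libraries used here, and the cause was not tested. The deposited mean of rapid reoxygenation at 12 h was 1513 CPM for hsa-miR-30d-5p, 1409 CPM for mmu-miR-30e-5p and 1145 CPM for hsa-miR-30c-5p, each below both libraries used here. On the means of the authors' deposited table, the log2 ratios of rapid reoxygenation to normoxia at 12 h were -0.22, -0.23 and -0.31, against 0.10, 0.11 and 0.10 on the means of the libraries used. For dre-miR-30a-3p the authors' deposited mean in that group was 17.0 CPM, below both libraries at 19.4 and 21.9 CPM, so that the row's low level in hypoxia at 0 h is stated for the 22 libraries only. For hsa-miR-30a-5p the mean in the authors' deposited table was 4.56 CPM in rapid reoxygenation at 12 h and 6.02 CPM in normoxia at 0 h.

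Few pairs of miR-30 entries, of the same or of different letters, varied closely together over the libraries. Of the 105 pairs of entries, 5 had a Pearson r above 0.7, and the median was 0.08. The pairs share the libraries, their depth and their scaling to a fixed sum, and the values are a description. mmu-miR-30e-5p and ssa-miR-30d-5p had an r of 0.87 (Spearman rho 0.84), whereas ssa-miR-30d-5p and hsa-miR-30d-5p, of the same letter and arm, had 0.10. ssa-miR-30d-5p was 12.5% ± 3.37 of the level of mmu-miR-30e-5p, from 7.78% to 21.3%.

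The 3p rows of miR-30a and miR-30b formed the second pair. hsa-miR-30a-3p and tgu-miR-30b-3p had an r of 0.86, and the latter was 47.2% ± 5.88 of the former, from 37.5% to 57.6%. hsa-miR-30c-5p had an r of 0.78 with fru-miR-30c and 0.72 with hsa-miR-30d-5p, and fru-miR-30c had 0.72 with hsa-miR-30d-5p. After subtracting group means these 5 values were 0.83, 0.91, 0.84, 0.73 and 0.75. The arms of miR-30a had an r of -0.11, those of miR-30b 0.52 and those of miR-30e -0.35.

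**Figure D5:**
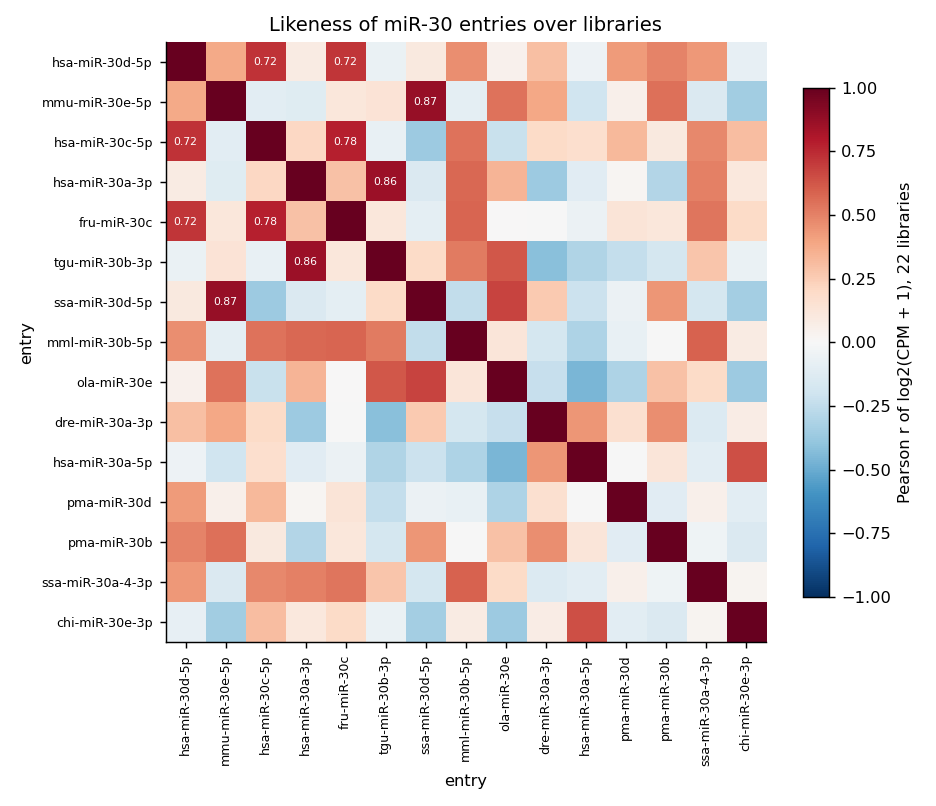
Pearson r of log2(CPM + 1) over the 22 libraries for each pair of the 15 miR-30 entries, in order of mean level, on a colour scale from -1 to 1. The 5 pairs above 0.7 carry their value, led by mmu-miR-30e-5p with ssa-miR-30d-5p at 0.87, and the other pairs run from -0.46 to 0.68.

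Entries outside the family that varied most like a miR-30 row differed from row to row. ola-miR-30e had an r of 0.91 with aca-miR-99b-5p, mml-miR-30b-5p 0.85 with ola-miR-17, and hsa-miR-30c-5p 0.82 with ssa-let-7h-3p and 0.80 with bfl-miR-125b. mmu-miR-30e-5p had 0.87 with cin-miR-199-3p and 0.83 with cfa-miR-101, and ssa-miR-30d-5p 0.87 with cfa-miR-101 and 0.84 with cin-miR-199-3p. pma-miR-30b had 0.80 with aca-miR-460a-3p, and hsa-miR-30d-5p 0.78 with chi-miR-125b-5p. For hsa-miR-30a-3p, tgu-miR-30b-3p, dre-miR-30a-3p and pma-miR-30d the highest r was 0.68, 0.69, 0.60 and 0.63.

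miR-384, which shares the miR-30 seed in mammals, had no entry in the table. Of the other miRNAs linked to lipid metabolism (miR-33, miR-27a, miR-27b, miR-34a, miR-103, miR-107, miR-122, miR-130a, miR-148a and miR-370), 8 of 10 were tested, and 1 passed the limma test, miR-122, which rose in normoxia from 0 h to 12 h by 0.84 ± 0.21 on the log2 scale (adjusted p = 0.0251). Of 10 miRNAs abundant in liver, 9 were tested, with miR-122 higher and miR-192 lower in that comparison, the latter by -1.54 ± 0.40 on the log2 scale (adjusted p = 0.0288), and 0 past the threshold in the other comparisons. Both lists have 4.82% of all entries as background there. The libraries of normoxia 0 h that the comparison rests on include the one that stood apart. Listed miRNAs were matched by exact name. miR-103 was represented by gmo-miR-103-5p, at 0.307 CPM and not tested, and miR-370 and, in the liver list, miR-101a had no entry. Tested rows with related names, such as hsa-miR-103a-3p at 198 CPM and cfa-miR-101 at 2183 CPM, were not counted in these lists.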

How the data were processed

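Small RNA sequencing of golden pompano liver was used through the deposited table of miRNA values. Per the labels' protocols, RNA was extracted with Trizol and sequenced as single-end reads of 50 bases. Per the submitters' processing notes, Bowtie was used. Not given in the sources used here were its version, the reference, the annotation and the program that counted reads. The values, deposited by the authors as TPM, are CPM: each library sums to 1000000, and dividing by the worth of 1 read gives a whole number within 0.01 for 100% of values, so reads were recovered and no scaling by length had been made. Reads assigned to rows summed to 17.5 to 33.8 M per library, with repeated rows each counted. The authors also deposited 8 columns of group means: 6 match the libraries used here, while the other two (normoxia 0 h, up to 12910 CPM apart, and rapid reoxygenation 12 h, up to 20335 CPM) do not, and the cause was not tested.

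Columns were joined to groups by the times in their names and the number of libraries. The letters beside them are not explained in the labels, and library numbers are those of the table. The numbers are not stated to pair libraries.

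Repeated rows were removed (708, leaving 1400), and 602 entries passed the filter of 1 CPM or more in 2 libraries or more. For the main test, limma 3.58.1 in R 4.3.3 was run on log2(CPM + 1) with a trend and all 22 libraries, and p-values were adjusted by Benjamini-Hochberg in each of 14 comparisons and 2 differences between them. Fold changes are on the log2(CPM + 1) scale, which understates changes of low rows. The arm ratio had an exact two-sided permutation test. edgeR 4.0.16 and DESeq2 1.42.0 were run on recovered reads. The fits were tested on simulated data. Other alternatives were other pseudocounts, filters and scalings, identical rows kept, a replicate block, and leaving out libraries. Figures used matplotlib 3.10.9 in Python 3.11.15. Every distinct row of the family is named, with identical rows under 1 name, and likeness is the highest Pearson r over the 22 libraries, 1 entry per family name. The members and lists were chosen with earlier results of these data known. Mature sequences were not used here.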

Additional observations from a re-analysis of the deposited data

How the results depend on the processing

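Counts of miR-30 rows past the threshold were 0 in every limma comparison and stayed 0 with pseudocounts of 0.25 and 10, no filter, TMM factors, quantile normalization and identical rows kept. Across the 8 groups the count was 2 with edgeR and 3 with DESeq2, and 0 to 2 when 1 library was left out. With DESeq2 it was 3 from hypoxia at 0 h to rapid and 1 to gradual reoxygenation at 3 h, 2 for gradual minus rapid at 3 h, 2 for gradual minus normoxia at 12 h, 3 for gradual reoxygenation from 3 h to 12 h, and 2 for the change of gradual minus rapid from 3 h to 12 h. A filter of 10 CPM gave 1 in gradual reoxygenation from 3 h to 12 h. Leaving out 1 library gave 0 to 3 from hypoxia at 0 h to rapid reoxygenation at 3 h, 0 to 2 for gradual minus rapid at 3 h and for its change to 12 h (2 in each without library 1 of rapid reoxygenation at 3 h), and 0 to 2 in normoxia from 0 h to 12 h (2, hsa-miR-30d-5p and its near copy, without library 3 of normoxia 0 h). The cause was not tested. An added alternative, without the 3 libraries highest in hsa-miR-30a-5p, was chosen after seeing the data and gave 0. The main test had 602 entries, and the fits with other filters or with identical rows kept had other numbers. Calls over all entries of a fit ran from 4 to 193 in normoxia between times (29 in the main test) and from 0 to 53 in gradual reoxygenation between times (11). They reached 7 from hypoxia at 0 h to rapid and 21 to gradual reoxygenation at 3 h, and 22 for gradual minus normoxia at 12 h. For gradual minus rapid they reached 14 at 3 h and 31 for its change to 12 h. The shares of all entries that edgeR and DESeq2 alone called are not given here.

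Scaling moved the median log2 difference of all entries in some comparisons. From hypoxia at 0 h to gradual reoxygenation at 3 h it was 0.02 in the main test and 0.12 in quantile normalization. In normoxia between times these values were -0.06 and 0.11, and for the change of gradual minus rapid between times -0.11 and -0.12. With TMM factors it went from -0.12 to 0.05 for gradual minus normoxia at 12 h, and from -0.12 to 0.06 in gradual reoxygenation between times.

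For the miR-30a arm ratio, taking the sum of all 5p rows of the family reversed 10 differences: hypoxia minus normoxia at 0 h (0.36), hypoxia at 0 h to gradual at 3 h (0.48), gradual minus rapid at 3 h (0.21) and 12 h (-0.45), gradual minus normoxia (-0.20) and minus hypoxia (-0.44) at 12 h, and 12 h against earlier in normoxia (0.57), hypoxia (0.46), rapid (0.19) and gradual reoxygenation (-0.47). That sum is mostly miR-30d, miR-30e and miR-30c. With dre-miR-30a-3p as the 3p arm, an alternative added after seeing the data, hypoxia minus normoxia at 0 h was 0.0097. With hsa-miR-30a-3p as the 3p arm and 1 library left out, hypoxia minus normoxia at 0 h ran from -0.88 to 0.33. Gradual minus rapid at 12 h then ran from -0.35 to 1.27.

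The fit with the replicate block called 0 miR-30 rows in each comparison. Libraries of the same number did not deviate together: the median r of their deviations was -0.06 over 70 pairs (-0.47 to 0.49), against 0.04 over 141 pairs of different numbers.

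Depth limits the low rows most, since 1 CPM is 17.5 to 33.8 reads, and 2 groups have 2 libraries.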
